A study of Mus musculus with 6 samples.

Results

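The 8 genes described here are those by which a neuron makes, stores, recaptures and breaks down acetylcholine: Chat, Slc18a3, Slc5a7, Slc10a4, Ache, Prima1, Bche and Colq. They were chosen by name as genes of the pathway, and all 8 were found by symbol among the 32285 genes of the tables. Mouse pups at postnatal day 5 were the source of the single cells. Their pelvic ganglion, beside the bladder and rectum, was taken for 2 libraries, pelvic_1 and pelvic_2. For comparison 1 library each was made of a parasympathetic ganglion (sphenopalatine) and of 3 sympathetic sources (stellate, coeliac and lumbar). All pups carried a BAC transgene that expresses Cre and a tdTomato reporter that Cre switches on at the Rosa locus; they were of both sexes, and pups were pooled in a library in numbers not stated in the sources used here. There were 2 rounds of sequencing: stellate, sphenopalatine and pelvic_1 libraries were made with chemistry version 2 in round 1, and coeliac, lumbar and pelvic_2 libraries with version 3 in round 2. No group was treated and there was no other genotype, so the comparisons are between ganglia and between types of neuron.

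Acetylcholine is made in the nerve ending by choline acetyltransferase, the product of Chat, from choline and acetyl-CoA. The vesicular transporter VAChT (Slc18a3) loads it into synaptic vesicles, acetylcholinesterase (Ache) cleaves it once released, and the high affinity choline transporter CHT1 (Slc5a7) takes the choline back. Slc10a4 encodes an orphan transporter of synaptic vesicles found in cholinergic and monoaminergic neurons, Prima1 and Colq encode the transmembrane and the collagen-tailed anchors that hold acetylcholinesterase tetramers at the cell surface or in the basal lamina, and Bche encodes butyrylcholinesterase, an enzyme with a wider choice of choline esters. In the autonomic system parasympathetic postganglionic neurons are cholinergic and most sympathetic ones noradrenergic, with a minority of cholinergic sympathetic neurons known from sweat glands and periosteum.

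Chat and Slc18a3 form a single locus. In GRCm38 (GENCODE M21) Chat lay on the minus strand of chr14:32408203-32465989, and Slc18a3, a gene of 1 exon, lay on the same strand inside it, at chr14:32462438-32464850, overlapping 0 exons of Chat and starting 1139 bases from the start of Chat. A read from an intron of unspliced Chat RNA in that interval and a read of Slc18a3 cannot be told apart. The other members stood apart from each other: Slc5a7 at chr17:54273590-54299034, Prima1 at chr12:103196908-103242150, Bche at chr3:73635808-73708415 and Colq at chr14:31523082-31591343 on the minus strand, and Slc10a4 at chr5:73006883-73012955 and Ache at chr5:137287519-137294466 on the plus strand. Colq, although on chromosome 14 as well, ended 871095 bases from Slc18a3.

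The 250 bases before the RefSeq start are shown for the 3 genes that the synthesis and cycling of acetylcholine cannot do without, because their levels varied together across ganglia while the base composition and motif matches of these windows differed (RefSeq, GRCm38.p6; Chat chr14:32465910-32466159, Slc18a3 chr14:32464851-32465100 and Slc5a7 chr17:54299035-54299284, all minus strand, printed 5′ to 3′ in the direction of transcription). Capitals mark the matches, on either strand and overlaps allowed, to 4 motifs that were searched: TAATTA, bound by many homeodomain proteins, CAGCTG, an E-box, GGGCGG, a GC box, and TGACGTCA, the cAMP response element.
Chat: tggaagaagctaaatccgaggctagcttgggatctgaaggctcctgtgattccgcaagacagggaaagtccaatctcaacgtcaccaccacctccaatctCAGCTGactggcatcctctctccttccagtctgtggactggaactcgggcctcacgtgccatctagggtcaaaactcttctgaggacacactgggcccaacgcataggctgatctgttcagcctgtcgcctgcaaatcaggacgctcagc
Slc18a3: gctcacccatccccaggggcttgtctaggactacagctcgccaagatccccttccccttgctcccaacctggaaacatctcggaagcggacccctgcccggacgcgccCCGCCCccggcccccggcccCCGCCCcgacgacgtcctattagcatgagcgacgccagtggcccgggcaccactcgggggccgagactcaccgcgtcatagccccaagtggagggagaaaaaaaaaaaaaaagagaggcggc
Slc5a7: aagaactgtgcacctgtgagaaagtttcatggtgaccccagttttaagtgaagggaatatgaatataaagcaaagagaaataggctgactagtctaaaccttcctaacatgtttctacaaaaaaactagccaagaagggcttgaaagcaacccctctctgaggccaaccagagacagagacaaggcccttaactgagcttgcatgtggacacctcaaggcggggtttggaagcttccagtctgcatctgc
The Chat window held 1 CAGCTG, the Slc18a3 window 2 GGGCGG (as CCGCCC), and the Slc5a7 window none of the 4 motifs. Among the 32851 RefSeq promoter windows of mouse genes, TAATTA was present in 4.84%, CAGCTG in 13%, GGGCGG in 32.7% and TGACGTCA in 1.55%. The Slc18a3 window was 66% G and C with 21 CG pairs, that of Chat 54.8% with 8 and that of Slc5a7 45.6% with 1, against a median of 52.4% and 6 pairs over those windows. A match is a run of letters and was not tested as a binding site.

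After filtering, 21442 cells remained, from 1427 in the coeliac to 7219 in the stellate library, out of 39353313 to 113352559 unique molecular identifiers (UMIs, the counted RNA molecules) per library. Of these, 7049 were neurons by 4 neuronal and 5 glial marker genes: the pelvic libraries gave 893 (pelvic_1) and 365 (pelvic_2), the sphenopalatine gave 1900, the stellate 2724, the coeliac 238 and the lumbar library 929. The labels were set beside markers that are not members. Most of these are among the genes that the study drew from these same libraries, so a match is no independent check. In sphenopalatine neurons 5 of 5 sphenopalatine markers (Hmx2, Hmx3, Dlx5, Dlx6, Ebf3) exceeded 10 CPM (UMIs of a gene per 1000000 UMIs of the group). In the neurons of any other library 0 of 5 did. Of the Hox genes of the pelvic ganglion, 5 of 5 did so in both pelvic libraries, against 1 of 5 in the lumbar library and 0 of 5 elsewhere. The sympathetic markers (Hand1, Gata3, Isl1, Gata2, Hmx1) passed that level in 5 of 5 in the stellate, coeliac, lumbar and both pelvic libraries and in 0 of 5 in the sphenopalatine one. Neurons had median depths of 26659 to 108598 UMIs and glial cells 3523 to 12151. Between any pair of libraries at most 49 cell barcodes were shared.

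Pelvic neurons were clustered without the 8 members and without the noradrenergic genes. Clusters were named with the study's markers where at least 3 of 5 were at least 2-fold higher than in the other pelvic neurons. There were 2 P1-like clusters, led by Cartpt and by Penk, and 1 each that was P2-like, P3-like and P4-like, plus an unnamed cluster led by the glial gene Fabp7. In the unnamed cluster 60 of 106 neurons in pelvic_1 and 15 of 16 in pelvic_2 were marked as likely doublets, and its summed glial markers stood at 771 and 737 CPM. Its values are therefore kept apart from those of the named clusters, but it enters the correlations over groups. P1-, P2- and P4-like neurons are called cholinergic pelvic neurons here, 656 in pelvic_1 and 316 in pelvic_2. The name follows the study, which assigned P1, P2 and P4 to the cholinergic and P3 to the noradrenergic pattern in these same libraries. Chat and Th were among the genes it used, so their differences between these groups are no independent result. No test across samples was made: every ganglion but the pelvic one was a single library, cells are not replicates, and an exact paired test over the 2 pelvic libraries could not go below a two-sided p of 0.5, so pelvic ratios are given within each library. Levels are CPM of the UMIs summed over a group, intervals are exact 95% Poisson or binomial (Clopper-Pearson) intervals that cover counting error only, ratios were taken within a round, and a difference is called 2-fold as a matter of size alone.

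Choline acetyltransferase divided the neurons sharply. In CPM, Chat stood at 52.7 in pelvic_1 and 36.8 in pelvic_2 in Cartpt-led P1-like neurons, at 41.1 and 26.6 in Penk-led P1-like neurons, at 82.7 and 60.8 in P2-like and at 75.3 and 70.6 in P4-like neurons. In P3-like neurons it stood at 0.579 (3 UMIs in 131 neurons) and 0.265 (1 UMI in 33 neurons). The other ganglia gave 24.6 CPM in the sphenopalatine, 0.516 in the stellate, 1.04 in the lumbar and 0.0555 in the coeliac library, where a single UMI was found in 238 neurons. In round 1 every cholinergic pelvic cluster was thus above the parasympathetic ganglion in Chat, beyond the counting intervals (36.1 to 46.6 CPM for the lowest, the Penk-led cluster, and 23.5 to 25.7 for the sphenopalatine neurons). The order among pelvic clusters, P2-like and P4-like above Cartpt-led P1-like above Penk-led P1-like, was the same in both libraries, while the intervals of P2-like and P4-like neurons overlapped in each. As mean of both libraries, Chat was 71.8 ± 15.5 CPM in P2-like, 73 ± 3.35 in P4-like, 44.8 ± 11.2 in Cartpt-led P1-like, 33.8 ± 10.2 in Penk-led P1-like and 0.422 ± 0.222 in P3-like neurons (SD, n = 2).

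The vesicular transporter and the choline transporter followed Chat, with more UMIs per neuron. Slc18a3 was at 358 and 449 CPM in Cartpt-led P1-like, 277 and 299 in Penk-led P1-like, 365 and 608 in P2-like and 524 and 671 in P4-like neurons (pelvic_1 and pelvic_2), and at 7.14 and 2.12 in P3-like neurons. It was at 262 CPM in the sphenopalatine, 28.1 in the lumbar, 11.1 in the stellate and 2.66 in the coeliac library. P4-like neurons were the highest of the clusters in both libraries and Penk-led P1-like neurons the lowest of the cholinergic ones.
Slc5a7 was at 306 and 475 CPM in Cartpt-led P1-like, 368 and 527 in Penk-led P1-like, 330 and 350 in P2-like, 405 and 443 in P4-like and 21 and 13.2 in P3-like neurons. It was at 299 CPM in sphenopalatine, 20 in lumbar, 16 in stellate and 5.77 in coeliac neurons. The order of the cholinergic clusters was not that of Slc18a3, and it differed between libraries: P4-like neurons were highest in pelvic_1 and Penk-led P1-like neurons in pelvic_2.

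The 2 transporters stood in different proportions in the cholinergic clusters. Of the UMIs of both genes together, Slc5a7 made 57.1% (55.5 to 58.6) in pelvic_1 and 63.8% (62.7 to 64.9) in pelvic_2 in Penk-led P1-like neurons, against 43.6% (41.6 to 45.7) and 39.8% (38.2 to 41.3) in P4-like neurons. P2-like neurons had 47.5% and 36.5%, and Cartpt-led P1-like neurons 46% and 51.4%. Penk-led P1-like neurons had the highest share of the choline transporter of the 4 named cholinergic clusters in both libraries, while the ranks of the other clusters changed between libraries. Over all cholinergic pelvic neurons the share was 48.5% and 48.7%, and in sphenopalatine neurons 53.3% (52.8 to 53.8), a narrower range than that between the pelvic clusters.

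**Figure D1:**
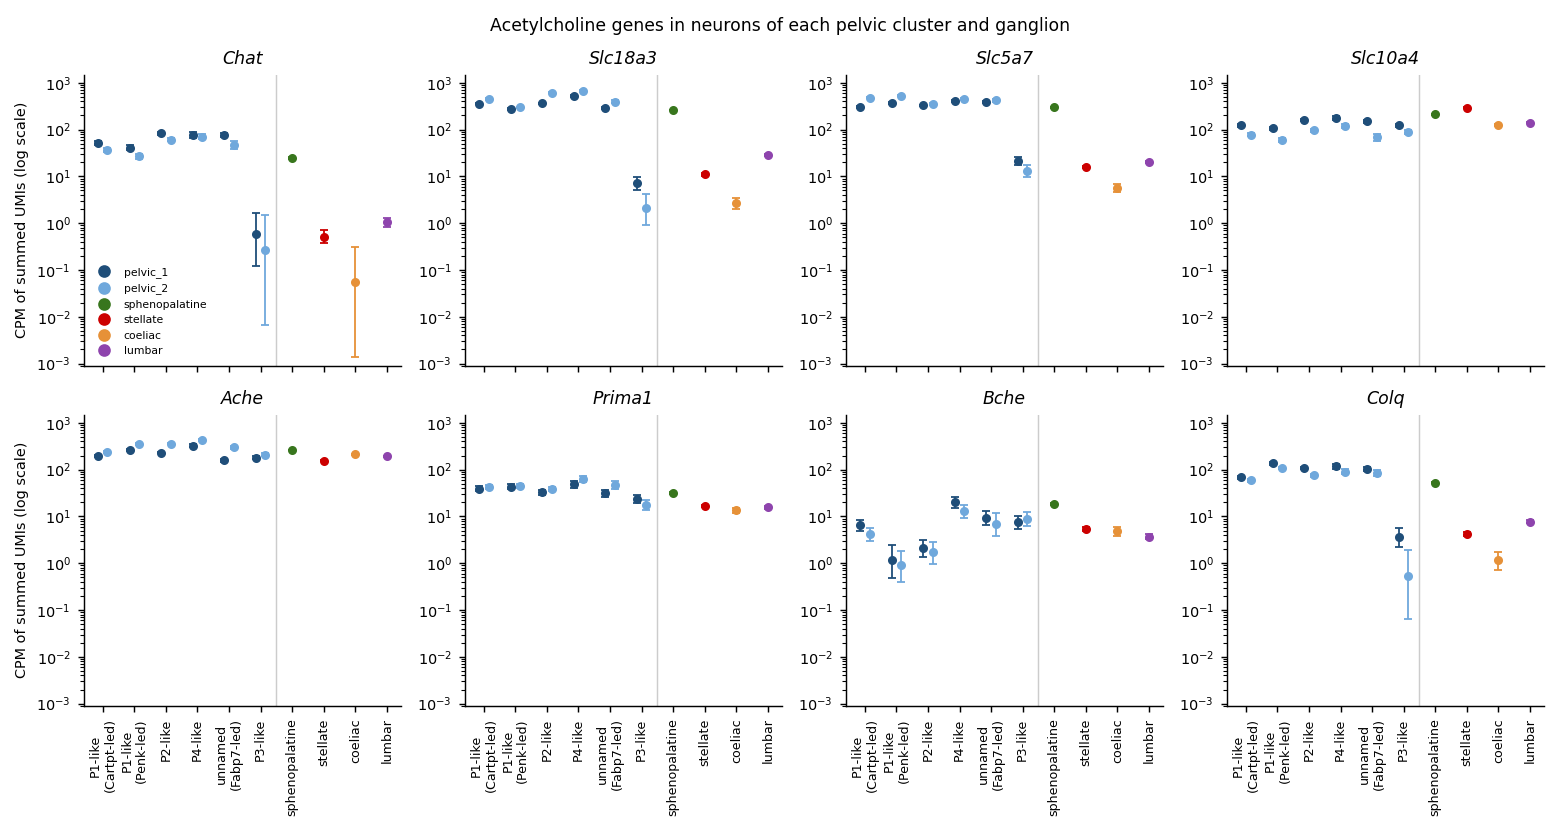
Level of each of the 8 genes, as CPM of summed UMIs on a log axis, in each pelvic cluster (pelvic_1 and pelvic_2 as separate points) and in all neurons of each other ganglion, with 95% Poisson intervals as bars. Chat, Slc18a3, Slc5a7 and Colq are low in P3-like, stellate, coeliac and lumbar neurons (Chat at 1.04 CPM or less, against 24.6 or more elsewhere), while Ache and Slc10a4 stay at 59.9 CPM or more in every group.

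Colq, the collagen tail of acetylcholinesterase, varied with the synthesis genes more closely than with the enzyme it anchors. It was at 68.8 and 58.8 CPM in Cartpt-led P1-like, 138 and 109 in Penk-led P1-like, 109 and 75.6 in P2-like and 118 and 91 in P4-like neurons, and at 3.67 (19 UMIs) and 0.53 (2 UMIs) in P3-like neurons. Sphenopalatine neurons had 52.7 CPM, lumbar 7.76, stellate 4.17 and coeliac 1.16. Among the named cholinergic pelvic clusters the order was not that of Chat. Penk-led P1-like neurons were highest in Colq but lowest in Chat and Slc18a3 in both libraries, though not lowest in Slc5a7. Cartpt-led P1-like neurons were the lowest of these clusters in both Colq and Ache. Correlations of log2(CPM + 1) were taken over 16 groups: each pelvic cluster in each library, the Fabp7-led one included, and each other ganglion. They describe groups that in part share libraries. Colq correlated with Chat, Slc18a3 and Slc5a7 at 0.97 to 0.98, and with Ache at 0.55. Chat, Slc18a3 and Slc5a7 correlated with each other at 0.97.

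Prima1, the membrane anchor, moved the same way by a smaller factor. It was at 39.5 and 43.2 CPM in Cartpt-led P1-like, 43.1 and 45 in Penk-led P1-like, 32.5 and 38.4 in P2-like, 48.6 and 63.7 in P4-like and 23.6 and 17.7 in P3-like neurons, with 31.4 in sphenopalatine, 16.7 in stellate, 15.6 in lumbar and 13.4 in coeliac neurons. Its correlation with Chat over the 16 groups was 0.89. The balance of the 2 anchors differed accordingly. Colq made 73% (71.6 to 74.4) and 64.4% (62.9 to 65.9) of the UMIs of both anchor genes in cholinergic pelvic neurons and 62.7% (61.5 to 63.9) in sphenopalatine neurons, but 13.5% (8.31 to 20.2) and 2.9% (0.353 to 10.1) in P3-like, 19.9% (18 to 21.9) in stellate, 8.02% (5.03 to 12) in coeliac and 33.2% (30.9 to 35.5) in lumbar neurons. In the groups low in Chat, taken whole, Prima1 thus gave the larger part of these UMIs.

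Acetylcholinesterase itself was found in every group. Ache was at 191 and 241 CPM in Cartpt-led P1-like, 264 and 350 in Penk-led P1-like, 231 and 360 in P2-like, 326 and 428 in P4-like and 179 and 208 in P3-like neurons, and at 261, 155, 211 and 191 CPM in sphenopalatine, stellate, coeliac and lumbar neurons. P3-like neurons were the lowest of the named pelvic clusters in both libraries, although their interval (168 to 191 CPM) overlapped that of Cartpt-led P1-like neurons (182 to 201) in pelvic_1. At least 1 UMI was found in 96.9% and 100% of P3-like and in 81.7% of stellate neurons.

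Slc10a4 took no side across the pelvic clusters and whole ganglia. It was highest in stellate neurons, at 294 CPM, followed in the same round by 210 in sphenopalatine neurons, 178 in P4-like, 160 in P2-like, 124 in P3-like, 123 in Cartpt-led P1-like and 106 in Penk-led P1-like neurons of pelvic_1. In round 2 lumbar neurons had 140 CPM, coeliac 125, P4-like 120, P2-like 96, P3-like 87.7, Cartpt-led P1-like 77.7 and Penk-led P1-like 59.9. P3-like neurons thus ranked in the middle of the cholinergic clusters in both libraries, and the order of the pelvic clusters was the same in both; the intervals of P3-like and Cartpt-led P1-like neurons overlapped.

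Butyrylcholinesterase set P4-like neurons apart from the other cholinergic pelvic neurons. Bche was at 19.9 CPM (14.8 to 26.3) in pelvic_1 and 12.9 (9.42 to 17.3) in pelvic_2 in P4-like neurons, against 6.47 and 4.13 in Cartpt-led P1-like, 1.18 and 0.921 in Penk-led P1-like, 2.1 and 1.75 in P2-like and 7.53 and 9 in P3-like neurons. A UMI of Bche was found in 55% (41.6 to 67.9) and 75.8% (57.7 to 88.9) of P4-like neurons, in 5.56% to 23.5% of P1-like and in 8.76% and 11.3% of P2-like neurons. Sphenopalatine neurons were at 18.2 CPM, stellate at 5.29, coeliac at 4.77 and lumbar at 3.66. Glial cells of the pelvic libraries had more, 32 and 58.4 CPM, with a UMI in 14.4% and 51.6% of cells at median depths of 4144 and 11979 UMIs. The summed glial markers of P4-like neurons were 393 and 378 CPM, against 14.8 to 87.4 CPM in the other named pelvic clusters. The Fabp7-led cluster had 771 and 737 CPM of the same markers and 9.44 and 6.89 CPM of Bche. Of the P4-like neurons, 1 of 60 and 2 of 33 were marked as likely doublets. The part of glial RNA in the Bche of P4-like neurons was not tested.

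The division within the pelvic ganglion was then put in numbers, cholinergic against P3-like neurons, in each library on its own. Of the 8 members 7 reached 10 CPM in one of the groups. In pelvic_1 4 were at least 2-fold higher in cholinergic neurons and 0 lower, where 5.39% of 8626 genes were higher and 3.56% lower by that much. In pelvic_2 5 were higher and 0 lower, against 5.08% and 4.40% of 8890 genes. Chat, Slc18a3, Slc5a7 and Colq were the 4 that were higher in both libraries, as were 3.99% of 8313 genes, while 2.89% were lower in both. Since P3-like neurons had 3 UMIs and 1 UMI of Chat, its ratios of 111 (37.8 to 537) and 167 (30 to 6619) rest on those few molecules. Slc18a3 was 50.2-fold (36.4 to 71.3) and 225-fold (114 to 520) higher and Slc5a7 16-fold (13.3 to 19.6) and 34.1-fold (25.9 to 46) higher. The ratio of Colq was 28.3 (18.1 to 47.1) in pelvic_1, and 153 (42.3 to 1263) in pelvic_2 against 2 UMIs.

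The remaining members separated these neurons by smaller factors. Ratios of cholinergic to P3-like neurons were 1.31 and 1.56 for Ache, and 1.12 (1.03 to 1.22) and 0.941 (0.839 to 1.06) for Slc10a4. Prima1 was 1.63-fold (1.35 to 1.98) higher in pelvic_1 and 2.52-fold (1.97 to 3.27) in pelvic_2, past 2-fold in the second library only. Bche did not reach 10 CPM and was lower in the cholinergic neurons, at ratios of 0.642 (0.447 to 0.943) and 0.396 (0.267 to 0.6).

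The same 4 genes also marked the parasympathetic ganglion against the sympathetic one of the same round, and were joined by Bche. All 8 members passed the minimum, and 5 were at least 2-fold higher in sphenopalatine than in stellate neurons and 0 lower, against 6.33% and 4.08% of 8627 genes. Chat was 47.6-fold (35 to 66.6), Slc18a3 23.6-fold (22.1 to 25.3), Slc5a7 18.7-fold (17.6 to 19.8), Colq 12.6-fold (11.3 to 14.2) and Bche 3.45-fold (3.09 to 3.86) higher. The ratio fell from the enzyme to the vesicular and then to the choline transporter, and the intervals of the 3 did not overlap. Prima1 (1.88) and Ache (1.68) stayed under 2-fold, and Slc10a4 was the only member with a ratio below 1, at 0.714 (0.7 to 0.729). These are whole ganglia, and 2 stellate clusters of 28 neurons each, described below, carried at least 3 markers of cholinergic sympathetic neurons. Without them, an alternative added after seeing the data, Chat was 271-fold (131 to 674, against 7 UMIs), Slc18a3 96.2-fold (83.9 to 111), Slc5a7 43.5-fold (39.9 to 47.6) and Colq 18.9-fold (16.5 to 21.8) higher in the sphenopalatine neurons, and the other 4 ratios lay between 0.705 and 3.44. Again 5 members were higher by 2-fold and 0 lower, against 6.70% and 4.11% of 8632 genes.

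**Figure D2:**
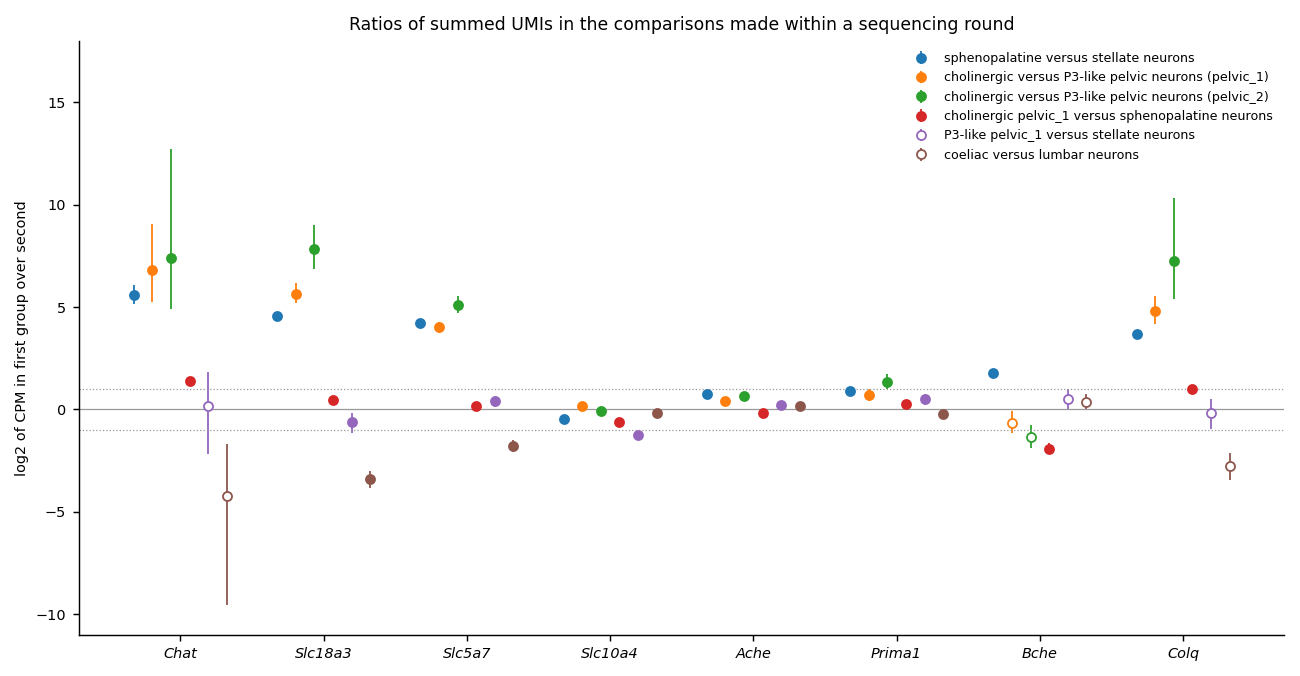
Log2 ratio of CPM of each member in 5 comparisons within a round, the pelvic one once per library, with 95% counting intervals as bars, dotted lines at 2-fold and open circles for genes under 10 CPM in both groups. Chat, Slc18a3, Slc5a7 and Colq lie far above the upper line in the sphenopalatine against stellate and the cholinergic against P3-like comparisons, and Slc10a4 lies below the lower line for P3-like against stellate neurons (ratio 0.423).

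Between the cholinergic neurons of the pelvic and the sphenopalatine ganglion, in round 1, Chat and Bche were the members that differed most. Among the 8 members 1 was at least 2-fold higher in pelvic_1 (3.85% of 8601 genes) and 1 lower (3.83%). Chat was 2.61-fold (2.44 to 2.78) higher in the pelvic neurons, and Bche was at a ratio of 0.265 (0.22 to 0.317). Colq came just under the line, at 1.97 (1.88 to 2.07), Slc18a3 was at 1.37 and Slc5a7 at 1.13, while Slc10a4 was at 0.663 (0.64 to 0.686) and Ache at 0.901. The 2 core transporters thus differed less than Chat did.

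P3-like neurons were next set against all stellate neurons, and 5 members reached the minimum, of which 0 were higher by 2-fold (3.93% of 8483 genes) and 1 lower (3.30%): Slc10a4, at a ratio of 0.423 (0.39 to 0.457). Ache was at 1.15, Prima1 at 1.41, Slc5a7 at 1.31 (1.07 to 1.6) and Slc18a3 at 0.644 (0.45 to 0.894). The last 2 values depended on the same pair of stellate clusters. Without them Slc5a7 was 3.06-fold (2.47 to 3.77) higher in P3-like neurons, and the ratio of Slc18a3 turned to 2.62 (1.79 to 3.73), with both groups under 10 CPM (7.14 and 2.73). Then 1 of 4 members was higher by 2-fold and 1 lower, Slc10a4 at 0.417 (0.385 to 0.451), against 4.04% and 3.30% of 8474 genes. Glial cells had 37.2 CPM of Slc5a7 and 37.4 of Slc18a3 in pelvic_1, but 2.84 and 2.66 in the stellate library. The part of RNA from other cells in these ratios of P3-like to stellate neurons was not tested. In round 2, coeliac against lumbar neurons, 5 members reached the minimum and 2 were lower in the coeliac by 2-fold (0.884% of 8596 genes) and 0 higher (1.15%). These were Slc18a3, at a ratio of 0.0946 (0.0695 to 0.126), and Slc5a7, at 0.288 (0.234 to 0.351); Slc10a4, Ache and Prima1 lay between 0.856 and 1.1. Without the 44 lumbar neurons of the cluster with cholinergic sympathetic markers, Slc18a3 was at 0.228 (0.167 to 0.306) and Slc5a7 at 0.491 (0.397 to 0.603). Both still passed 2-fold, as did 0.757% of 8589 genes in that direction, but the interval of Slc5a7 crossed 2-fold. Of the 805 Slc5a7 UMIs left in lumbar neurons, 731 lay in 1 cluster of 156 neurons, with up to 95 in a single neuron.

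The molecules of Chat, Slc18a3 and Slc5a7 in the sympathetic libraries were not spread evenly. In each ganglion the neurons were clustered without the members, and in the stellate ganglion 1 cluster of 28 neurons, led by Vip, Cartpt and Sst and with 5 of 5 markers of cholinergic sympathetic neurons (Vip, Sst, Tlx3, Ret, Gfra2), had Chat at 24.8 CPM (16.6 to 35.5), Slc18a3 at 437 (400 to 477), Slc5a7 at 272 (243 to 304) and Colq at 61.5 (48.1 to 77.4). These 28 neurons, 1.03% of 2724, held 70.7% of the Chat, 58.1% of the Slc18a3 and 25.1% of the Slc5a7 UMIs of the ganglion. Without the 5 neurons highest in a gene its level was 342 CPM for Slc18a3 and 181 for Slc5a7, and without 7 likely doublets 468 and 288. In the lumbar library the like cluster, 44 neurons led by Vip, Sst and Calca with 5 of 5 markers, had Chat at 16.3 CPM (12.4 to 20.9), Slc18a3 at 329, Slc5a7 at 172 and Colq at 77.3, and held 81.3%, 60.7%, 44.4% and 51.7% of the UMIs of those genes. Prima1 was at 45.2 and 44 CPM and Ache at 333 and 404 CPM in these cholinergic sympathetic-like clusters, each above the level over all neurons of its ganglion. Slc10a4 went the other way, at 168 and 57 CPM in these clusters against 294 and 140 over all stellate and all lumbar neurons. Compared with sphenopalatine neurons of the same round, the stellate cluster had Chat at nearly the same level (24.8 and 24.6 CPM), Slc18a3 at a higher one (437 and 262) and Slc5a7 at a slightly lower one (272 and 299). The coeliac library held no cluster with more than 2 of the 5 markers.

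A second stellate cluster carried the set in other proportions. It was 28 neurons led by Adgrg6, Pnoc and Ass1, with 3 of the 5 markers (Vip, Ret, Gfra2) and without Sst or Tlx3. Slc5a7 was at 343 CPM (311 to 378), the highest of any stellate cluster, with a UMI in 28 of 28 neurons, and Slc18a3 was at 129 (110 to 150), with a UMI in 27 of 28. Chat amounted to 5 UMIs in 4 neurons (4.05 CPM, 1.31 to 9.45). Th was at 619 CPM and Dbh at 251 in these neurons, each with a UMI in 100% of them. The largest stellate cluster (869 neurons) had 600 and 939 CPM. In both clusters these levels lay below the Th and Dbh thresholds set further on from stellate glial cells (10.6 and 12.5 UMIs per 10000). The part of RNA from other cells in the Th and Dbh of the Adgrg6-led cluster was not tested. In the Vip- and Sst-led stellate cluster Th was at 228 CPM (96.4% of neurons) and Dbh at 1075 (100%). The lumbar Vip- and Sst-led cluster had 17.6 (43.2%) and 552 CPM (100%). Slc5a7 made 72.7% (68.9 to 76.3) of the UMIs of both transporters in the Adgrg6-led cluster, against 38.4% (35.1 to 41.8) in the stellate Vip- and Sst-led cluster. Colq, at 35.6 CPM, made 74.6% (61.6 to 85) of the anchor UMIs of the Adgrg6-led cluster, although it was low in Chat.

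Other sympathetic clusters were weighted towards 1 of the transporters. In the lumbar library a cluster of 250 neurons (led by Chst1) had 251 UMIs of Slc18a3, in 89 neurons, and 21 of Slc5a7, in 12, so that Slc5a7 made 7.72% (4.84 to 11.6) of both; Chat amounted to 2 UMIs. A cluster of 156 lumbar neurons (led by Cntn5) had the reverse balance, Slc5a7 at 58.8 CPM and Slc18a3 at 30.9, or 65.6% (62.7 to 68.4) Slc5a7, with 12 UMIs of Chat in 9 neurons and Colq at 16.2 CPM. In that cluster a few neurons carried much of the sum: without the 5 highest neurons Slc5a7 fell to 32.2 CPM and Slc18a3 to 20.8. In the coeliac library the cluster led by Itga1 (43 neurons) had 91 UMIs of Slc5a7 in 17 neurons and 5 of Slc18a3 in 4, or 94.8% (88.3 to 98.3) Slc5a7, and the cluster led by Sytl4 (145 neurons) 13 and 42 UMIs, or 23.6% (13.2 to 37). The coeliac values rest on few neurons too, since without the 5 highest Slc5a7 fell from 15.9 to 6.75 CPM in the first and Slc18a3 from 5.87 to 2.2 CPM in the second. Glial cells of these libraries had at most 0.0139 UMIs of either gene per cell, against 1 of Slc18a3 per neuron in the Chst1-led and 2.12 of Slc5a7 per neuron in the Itga1-led cluster. Depth differed: the median was 10470 UMIs in lumbar and 12151 in coeliac glial cells, and 72334 and 146751 in these 2 clusters. Per UMI, Slc18a3 was at 1.23 CPM in lumbar glial cells and 12.9 in the Chst1-led cluster. Slc5a7 was at 0.193 CPM in coeliac glial cells and 15.9 in the Itga1-led cluster. Coeliac fibroblast-like cells had 35 UMIs of Slc5a7 in 231 cells, or 6.5 CPM (4.52 to 9.03), which is level with the 6.75 CPM of the Itga1-led cluster without its 5 highest neurons.

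**Figure D3:**
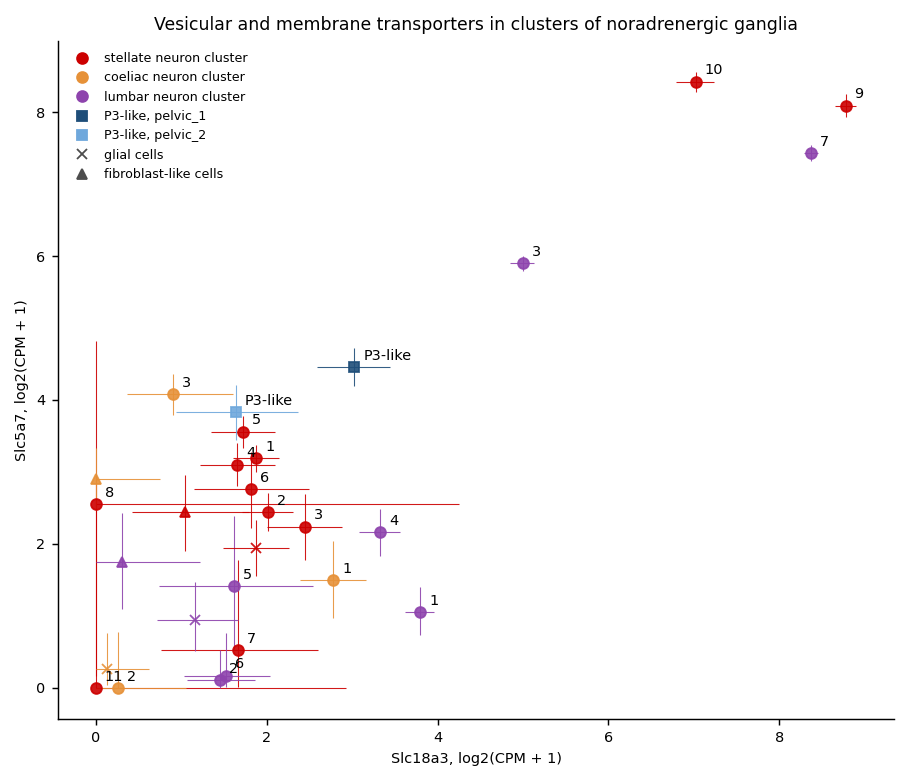
Log2(CPM + 1) of Slc18a3 (horizontal) against Slc5a7 (vertical), with 95% counting intervals as bars, for numbered neuron clusters of the stellate, coeliac and lumbar ganglia, P3-like neurons, and glial and fibroblast-like cells of the 3 ganglia. Stellate clusters 9 and 10 and lumbar cluster 7 lie at the upper right, while lumbar cluster 1 (12.9 CPM of Slc18a3, 1.08 of Slc5a7) and coeliac cluster 3 (0.874 and 15.9) lie off the diagonal on opposite sides.

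Partial sets were then counted neuron by neuron. A neuron was taken as noradrenergic where Th and Dbh, the enzymes that make dopa and noradrenaline, each exceeded the 99th percentile of glial cells of the same library, which left 504 of 2724 stellate, 190 of 238 coeliac, 684 of 929 lumbar and 132 of 164 P3-like neurons, but 17 of 1900 sphenopalatine, 2 of 531 P1-like, 0 of 348 P2-like and 0 of 93 P4-like neurons. Of the stellate neurons 460 lay within 25% of the threshold, since glial cells of that library carried much Th and Dbh, up to 10.6 and 12.5 UMIs per 10000 at that percentile. At least 1 UMI of Chat, Slc18a3 or Slc5a7 was found in 27.8% (23.9 to 31.9) of the stellate, 20% (14.6 to 26.4) of the coeliac and 36.3% (32.6 to 40) of the lumbar noradrenergic neurons, and in 49.5% (39.3 to 59.7) of P3-like ones in pelvic_1 and 72.7% (54.5 to 86.7) in pelvic_2. The median depths were 46424, 70114, 83428, 40991 and 115153 UMIs.

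The same count in glial cells sets how these shares can be read. It was 2.17% in stellate glial cells (median depth 3523 UMIs), 0.378% in coeliac (12151) and 2.08% in lumbar ones (10470), but 18.5% in the sphenopalatine library (4725) and 16.6% and 19.2% in the pelvic libraries (4144 and 11979). With cells thinned to 10000 UMIs and shallower ones left out, the share was 11.3% (9 to 14) of 653 lumbar noradrenergic neurons, against 2.07% (0.999 to 3.78) of 482 glial cells and 3.57% (1.32 to 7.61) of 168 fibroblast-like cells. It was 5.49% (2.67 to 9.87) of 182 coeliac neurons, above the 0.163% of 615 glial cells but level with the 5.12% (2.58 to 8.97) of 215 fibroblast-like cells. It was 8.58% (6.23 to 11.5) of 478 stellate neurons, where 1 of 25 glial and 0 of 23 fibroblast-like cells of that depth had a UMI, too few to compare. In P3-like neurons it was 19.4% (12.1 to 28.6) of 98 and 9.09% (1.92 to 24.3) of 33, where 38.9% of 54 pelvic_1 glial cells, 16% (12.7 to 19.8) of pelvic_2 glial cells and 14.5% (10.3 to 19.4) of pelvic_1 fibroblast-like cells had one. At equal depth, then, P3-like neurons did not exceed other cells of the same library in this share beyond counting error. The share pools 3 genes, so it cannot show whether P3-like neurons express 1 of them. The 54 pelvic_1 glial cells were the deepest of 1767, and whether they hold doublets with neurons was not tested. In the lumbar library the share of noradrenergic neurons was above that of both other kinds of cell.

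The transporters of P3-like neurons were also set beside those of the glial, fibroblast-like, endothelial-like, mural-like and macrophage-like cells of the same library. Per UMI of the cell, Slc18a3 was lower in P3-like neurons than in each of the 5 classes, at 7.14 CPM against 9.77 to 37.4 in pelvic_1 and at 2.12 against 4.59 to 10.5 in pelvic_2. Slc5a7, at 21 CPM in pelvic_1, was below the glial cells (37.2) and above the other classes (10.6 to 13), and at 13.2 CPM in pelvic_2 it was above all 5 (0.938 to 8.59). Per cell, with depths of 39371 and 115153 UMIs in the P3-like neurons, the same counts come to 0.282 and 0.242 UMIs of Slc18a3, against 0.083 to 0.203 in the other cells, and to 0.832 and 1.52 of Slc5a7, against 0.0132 to 0.186. Slc5a7 made 74.7% (66.8 to 81.5) and 86.2% (74.6 to 93.9) of the UMIs of both transporters in P3-like neurons. It made 49.9% (46 to 53.9) and 45% (36.6 to 53.6) in glial cells and 48.5% and 48.7% in cholinergic pelvic neurons. Glial cells here were chosen by marker level. Cells of clusters named glia-like had Slc5a7 at 13.6 ± 5.65 and Slc18a3 at 17 ± 7.7 CPM (mean and SD, n = 2 libraries). P3-like neurons had 17.1 ± 5.52 and 4.63 ± 3.55 CPM by the same measure. The place of Slc5a7 relative to glial cells in pelvic_1 thus depends on how these are defined.

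The genes that made up a partial set are given side by side, since libraries of different rounds and depths (46424 UMIs in stellate and 83428 in lumbar noradrenergic neurons) were not tested against each other. Of the 140 stellate noradrenergic neurons with any of the 3 genes, 88 had Slc5a7 alone, 40 Slc18a3 alone, 11 both and 1 Chat alone. Of the 248 lumbar ones 165 had Slc18a3 alone, 39 Slc5a7 alone, 38 both, 1 Chat alone, 1 Chat with Slc18a3 and 4 all 3. In the coeliac 17 had Slc18a3 alone, 19 Slc5a7 alone and 2 both. Of the 73 P3-like neurons, 43 had Slc5a7 alone, 13 Slc18a3 alone, 13 both, 2 Chat with Slc18a3, 1 Chat alone and 1 all 3. A full set was therefore found in 0 of 504 stellate, 0 of 190 coeliac, 4 of 684 lumbar and 1 of 132 P3-like noradrenergic neurons, while it was found in 944 of 1900 sphenopalatine, 264 of 345 and 139 of 186 P1-like, 227 of 251 and 75 of 97 P2-like and 57 of 60 and 32 of 33 P4-like neurons. The thresholds for Th and Dbh were higher in the stellate (10.6 and 12.5 UMIs per 10000) than in the lumbar library (2.26 and 3.58). Over all neurons, without a threshold, a full set was found in 23 of 2724 stellate, 0 of 238 coeliac and 34 of 929 lumbar neurons. The noradrenergic counts thus depend on thresholds that differ between libraries.

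**Figure D4:**
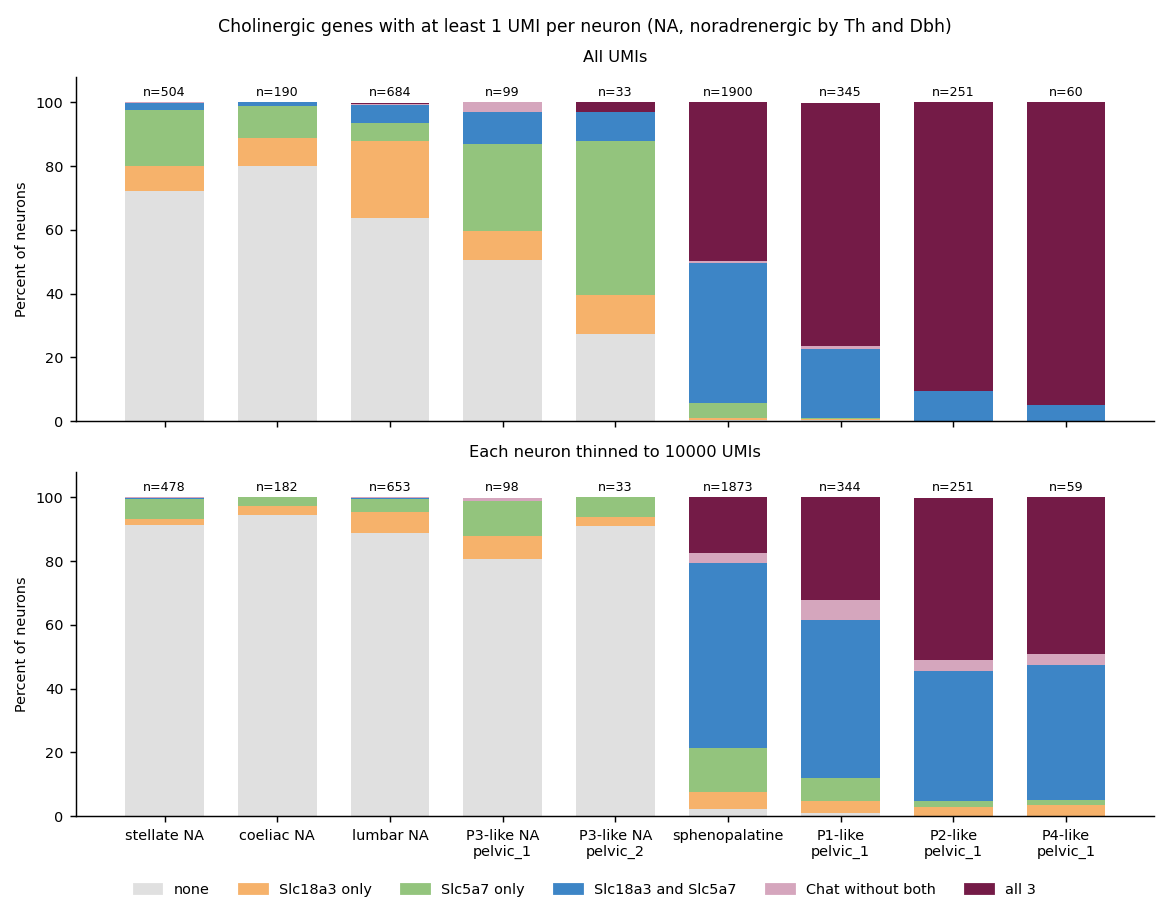
Percent of cells with each combination of UMIs of Chat, Slc18a3 and Slc5a7, as stacked bars, in noradrenergic (NA) neurons of each kind and in cholinergic neurons of round 1, with all UMIs (top) and with each neuron thinned to 10000 UMIs (bottom). With all UMIs Slc18a3 alone was the most frequent partial set in lumbar (24.1%) and Slc5a7 alone in stellate noradrenergic neurons (17.5%), while thinning leaves 11.3% and 8.58% of these neurons with any of the genes.

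At equal depth few noradrenergic neurons had both transporters. With 10000 UMIs a neuron, 1 of 31 stellate neurons with Slc5a7 also had Slc18a3 (3.23%, against 2.01% of those without Slc5a7), as did 3 of 29 lumbar ones (10.3% against 7.05%). Slc10a4 was found in 31 of 31 and Ache in 28 of 31 stellate neurons with Slc5a7, much as in those without it (96.4% and 88.1%). Colq was found in 4 of the 29 lumbar neurons with Slc5a7 (13.8%) and in 1.44% of 624 without, and in 1 of the 31 stellate ones (3.23%, against 3.58%).

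Within the sphenopalatine ganglion the members varied between clusters. Over its 7 clusters Chat ranged from 8.29 to 66.1 CPM, Slc18a3 from 159 to 517, Slc5a7 from 231 to 382, Colq ranged from 14.3 to 127, Prima1 from 21.1 to 59.4, Ache from 186 to 371, Slc10a4 from 118 to 243 and Bche from 9.64 to 22.8. A cluster of 214 neurons led by Penk and Gpr50 had the most Chat and Colq, and 66.1 CPM is within the range of the pelvic clusters of round 1. The lowest Chat, 8.29 CPM, was in the cluster of 146 neurons led by Npy and Cited1, where Slc10a4 was lowest too (118 CPM) but Ache stood at 333. The share of Slc5a7 among both transporters was 62.3% (60.7 to 63.8) there and 39.3% (38.2 to 40.5) in the Penk-led cluster. Cluster 5, led by Fabp7, had 546 CPM of glial markers and 98 of 190 neurons marked as likely doublets, and its Chat was 20.6 CPM.

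Genes that supply the substrates mostly differed by less than 2-fold. The 7 genes of acetyl-CoA supply (among them Acly, which makes acetyl-CoA from citrate, and Pdha1 of the pyruvate dehydrogenase complex) were all above the minimum and within 2-fold in all 6 comparisons, with a median log2 ratio of -0.04 for sphenopalatine over stellate and of 0.19 and 0.1 for cholinergic over P3-like neurons, where the median of all genes was 0.06, 0.00 and -0.08. Of 15 genes of choline uptake and phosphorylation, 6 were under 10 CPM in the sphenopalatine and stellate neurons, 7 within 2-fold and 2 higher in the sphenopalatine: Slc44a5, a choline transporter-like protein, at 24.7 against 4.84 CPM (5.11-fold), and Pcyt1b, of phosphatidylcholine synthesis (2.24-fold). In the pelvic ganglion Slc44a5 was at 11.5 against 7.53 CPM in pelvic_1 and 14.7 against 5.3 in pelvic_2 (2.78-fold), cholinergic against P3-like. Of 6 partners of collagen-tailed acetylcholinesterase in the basal lamina and muscle endplate, Musk, Lrp4, Hspg2 and Dok7 were under the minimum in sphenopalatine and stellate neurons and the other 2, Agrn and Dag1, within 2-fold.

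Genes of the other transmitter were opposite in direction. Of 9 noradrenergic genes 8 were at least 2-fold lower in sphenopalatine than in stellate neurons, among them Th (1.86 against 994 CPM), Dbh (38.4 against 1297) and the noradrenaline transporter Slc6a2 (27.5 against 1615). In both pelvic libraries 7 of 9 were at least 2-fold lower in cholinergic than in P3-like neurons, and Pnmt, which makes adrenaline, was under the minimum. Vesicular monoamine transporter (Slc18a2) stood at 19.4 and 21.2 CPM in the cholinergic pelvic neurons against 260 and 340 in P3-like ones. P3-like neurons of pelvic_1 were themselves at least 2-fold lower than stellate neurons in 3 of the 9 genes, as were 3.30% of 8483 genes. These were Ddc (208 against 465 CPM), Slc6a2 (548 against 1615) and Pnmt (0.579 against 31.3). The other 6 were within 2-fold, among them Th (501 against 994) and Dbh (1090 against 1297). The median log2 ratio of the list was -0.57.

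The gene most like Chat over the 16 groups was its neighbour. Among 10248 genes, Gm2990, a transcript annotated as antisense on the plus strand at chr14:32465042-32483548, had the highest correlation with Chat (0.979) and with Colq (0.982), followed for Chat by C1qtnf6 and Lmo4 (both 0.959), Rab22a (0.956) and Jade2 (0.954) and for Colq by Rab22a (0.970) and C1qtnf6 (0.964). Gm2990 starts 192 bases from the start of Slc18a3, within the Slc18a3 window printed above, and overlaps Chat over 948 bases on the opposite strand. The overlap lies at the start of both genes, while these counts see an RNA near its polyA end. The strand setting of the counting is not given in the sources used here, and the part of reads from the overlap was not tested. Gm2990 was at 55.2 and 43.9 CPM in cholinergic pelvic neurons, 48.8 in sphenopalatine and 1.16 and 0.265 in P3-like neurons. Stellate neurons had 2.27, lumbar 3.83 and coeliac 0.388 CPM. In the stellate Vip- and Sst-led, the stellate Adgrg6-led and the lumbar Vip- and Sst-led clusters it was at 61.5, 36.4 and 38.1 CPM. Gm2990 gave more UMIs than Chat in sphenopalatine neurons and in the Adgrg6-led stellate cluster, where Chat was at 24.6 and 4.05 CPM. The same held in both Vip- and Sst-led clusters, in both P1-like clusters of each library and over all stellate, lumbar and coeliac neurons. P2-like and P4-like neurons had more of Chat in both libraries. Prima1 was most like Pappa (0.947), Hoxb2 (0.941) and Lmo4 (0.933), and Slc10a4 was less closely matched, by Fam220a (0.886), Alkbh1 (0.878) and Guf1 (0.875).

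Bche and Prima1 were found in the glial cells of every library. Bche was at 32, 58.4, 17.9, 20.1, 52.2 and 49.3 CPM in the glial cells of pelvic_1, pelvic_2, sphenopalatine, stellate, coeliac and lumbar libraries, above the neurons of the same library except in the sphenopalatine one, where both were at about the same level (17.9 and 18.2 CPM). Prima1 was at 11.3 to 17.5 CPM in glial cells, close to the noradrenergic neurons and below the cholinergic ones. Fibroblast-like cells had at most 2.98 CPM of Bche and 2.96 of Prima1.

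**Figure D5:**
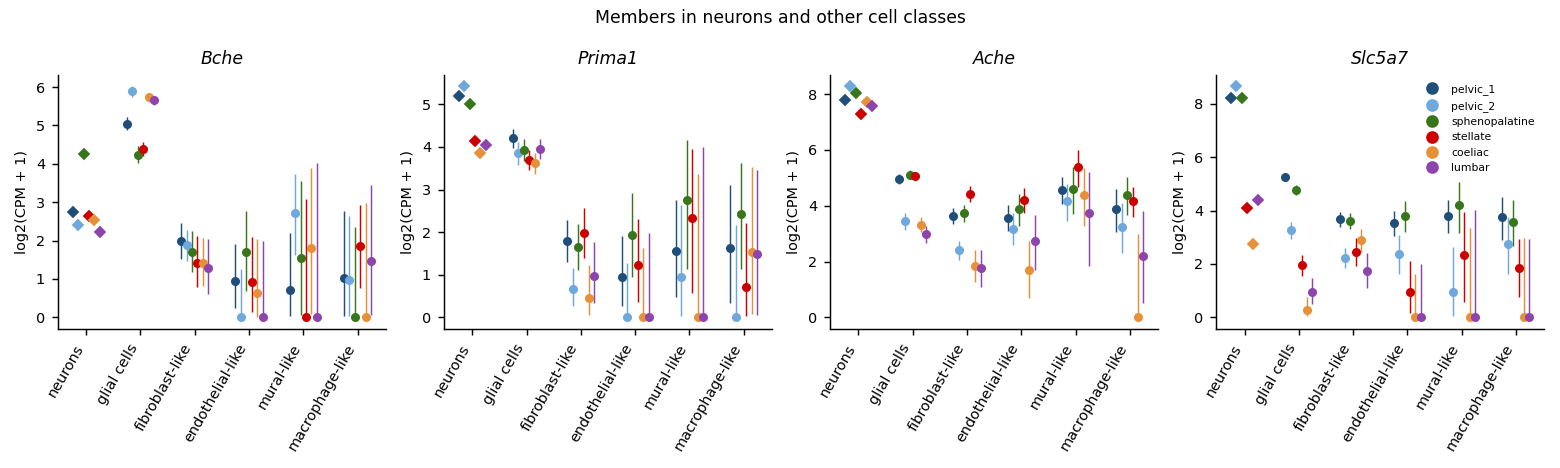
Log2(CPM + 1) of Bche, Prima1, Ache and Slc5a7 in neurons (diamonds) and in 5 classes of other cells (circles, with 95% counting intervals as bars) of each library. Bche is higher in glial cells (17.9 to 58.4 CPM) than in neurons of every library but the sphenopalatine one, while Ache and Slc5a7 are highest in neurons, except that coeliac Slc5a7 is about level in neurons (5.77 CPM) and fibroblast-like cells (6.5 CPM).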

How the data were processed

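Per the labels and the study's methods, cells of dissected ganglia were dissociated and loaded on the 10x Chromium, with no sort described, and the authors made the tables of UMI counts with Cell Ranger 6.0.1 on mm10 (submitters' processing notes). The deposited values are raw counts, 1 table per library, from 39353313 to 113352559 UMIs. The strand setting is not given in the sources used here. Such 3′ counts see an RNA near its polyA end, not its splice forms. Here cells with 1500 to 11000 genes and at most 15% mitochondrial UMIs were kept. Values from sctransform 0.4.2 (R 4.3.3) gave neurons as cells with a mean over 3 for Stmn2, Stmn3, Gap43 and Tubb3 and under 1.15 for 5 glial marker genes, and glial cells as the reverse. Doublets were scored against simulated ones and left in: 7.99% to 12.5% of cells of a library were marked. Pelvic neurons were clustered on 3000 variable genes and 50 components, after mutual nearest neighbour correction, with Louvain at a resolution of 0.3 (Python 3.11.15, scikit-learn 1.9.0, python-igraph 0.11.9). Other neurons and cells were clustered within each library on 2000 genes and 30 components, without correction. The resolution was 0.3 for neurons and 0.5 for other cells. The 8 genes and the noradrenergic list were always left out. A cluster was named from at least 3 of its markers; names rebuilt in this way may differ from the study's. Counts were summed over cells as CPM, intervals are exact (95%, scipy 1.17.1), genes with at least 10 CPM in either group formed the background, and cells were thinned by drawing UMIs at random without replacement. With 1 library for each ganglion but the pelvic one, no p-value was computed; the calling of 2-fold genes and the search for like genes were tested on simulated data. Genes named are the 8 members, 4 lists from pathway knowledge, and the 5 genes most correlated with Chat and 3 each with Colq, Prima1 and Slc10a4; cluster-leading genes serve as names. The members and lists were chosen with earlier results of these data known. Gene positions are from GENCODE M21 (GRCm38) and upstream sequences from RefSeq (GRCm38.p6), matched by symbol for 7 of 8 members, all but Colq. Some gene names are not reported here.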

Additional observations from a re-analysis of the deposited data

Results flagged for a closer look

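Cells that fell under the neuronal threshold enter none of the comparisons, and 4 small unnamed clusters of them carried Chat above the glial cells of the same library. In pelvic_1 a cluster of 47 cells led by Hhip had 101 UMIs of Chat, 104 CPM (84.3 to 126), and a cluster of 43 cells led by Adcyap1 had 148 UMIs, 116 CPM (98.4 to 137), where glial cells had 6.81 CPM. In pelvic_2 a cluster of 60 cells led by the haemoglobin gene Hba-a1 had 39 UMIs, 34.6 CPM (24.6 to 47.3), where glial cells had 0 UMIs, which allows up to 0.503 CPM. In the sphenopalatine library a cluster of 53 cells, also led by Hba-a1, had 32 UMIs, 29.2 CPM (20 to 41.2), where glial cells had 2.54 CPM. The median depths of these clusters were 21591, 29941, 15744 and 23030 UMIs, above that of the glial cells of each library. Aldh1a2, one of the study's P4 markers, was among the leading genes of the Adcyap1-led cluster. Chga and Chgb were among those of the pelvic_2 cluster. Whether these cells are neurons that missed the threshold was not tested.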

How the results depend on the processing

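Of 80 recomputed counts and shares, 60 stayed within the limits set for them (1.5 times for a count, the counting interval for a share) and 20 moved. Selecting neurons on log counts, keeping neurons with glial markers, removing marked doublets, a resolution of 0.6 and leaving out the batch correction moved none of the results they were run on. Those results were not the orders of levels among pelvic clusters, and the clusters themselves changed. Without batch correction no cluster was led by Penk. At a resolution of 0.6 a cluster of 105 neurons led by Wscd1 was unnamed. On log counts P4-like neurons numbered 129, against 93. Thinning cells to 4000 UMIs took P3-like against stellate neurons from 1 member to 0, and the shares of noradrenergic neurons with any core gene to 5.71% (stellate), 1.96% (coeliac), 7.48% (lumbar) and 9.76% (P3-like, both libraries, from 55.3%). Neurons and glial cells thinned to 10000 UMIs before the Th and Dbh threshold gave 8.31%, 7.19%, 12.6% and 5.41%, the last of 37 neurons. A minimum of 2 UMIs gave 10.3%, 10.5%, 20% and 19.7%, and no Th and Dbh threshold gave 17.7% in the stellate. Fewer UMIs per cell leave fewer cells with any, by construction. A fold of 4 left 0 members for cholinergic pelvic against sphenopalatine neurons (2 at a fold of 2), 0 for P3-like against stellate and 1 for coeliac against lumbar neurons, and a minimum of 1 CPM gave 4 there, because Chat and Colq then entered. Leaving out a pelvic library gave 49.5% to 72.7% for P3-like neurons, the higher from pelvic_2 alone, and 4 to 5 members for cholinergic against P3-like neurons. Of 200 values of single members 193 kept their sign, with 95 of 95 among those called at 2-fold, and 16 moved by over 1.5-fold, all under thinning to 4000 UMIs. Leaving out the stellate and lumbar clusters with cholinergic sympathetic markers gave 2 members for P3-like against stellate neurons (1 with them), since Slc5a7 then passed 2-fold, and turned the ratio of Slc18a3 there from 0.644 to 2.62. That alternative and the levels of clusters without their 5 highest neurons or without marked doublets were chosen after seeing the data. No paired analysis was possible because no result comes from a test: between ganglia only the replicate number 1 is shared, and the pelvic ratios were taken within each library. With 3 UMIs and 1 UMI of Chat in P3-like neurons, depth limits that ratio to its lower bounds of 37.8 and 30.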

Other observations

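The choline transporter was also found in fibroblast-like cells of the sympathetic ganglia. In the coeliac library Slc5a7 gave 35 UMIs in 25 of 231 fibroblast-like cells (10.8%, 7.13 to 15.6; 6.5 CPM), and Slc18a3 gave 0, at a median depth of 20528 UMIs, while 2 of 793 glial cells (0.252%) had Slc5a7 at a median depth of 12151. In the lumbar library 10 of 181 fibroblast-like cells (5.52%, 2.68 to 9.93) had Slc5a7 and 1 had Slc18a3, against 9 of 865 glial cells (1.04%). In the stellate library 21 of 846 had Slc5a7 and 5 had Slc18a3, so that Slc5a7 made 80.8% (60.6 to 93.4) of both, against 51.6% (38.6 to 64.5) in glial cells. In the pelvic libraries the fibroblast-like cells had the 2 transporters in the proportion of the glial cells, 54.7% (46.6 to 62.6) and 41.5% (31.4 to 52.1) Slc5a7.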
